A study of Mus musculus with 2 samples.

Results

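The 10 genes described here are those of the type 2 immune axis of skin: the epithelial alarmin Tslp, the cytokines Il4, Il5, Il13 and Il31, the receptor chains Il4ra, Il13ra1, Il13ra2 and Il31ra, and the transcription factor Gata3. They were taken by symbol from the 31053 genes of the count tables, and all 10 were found. Their UMIs (unique molecular identifiers, each standing for 1 captured transcript) were followed through cell classes gated on marker genes, none of which is among the 10. Full-thickness back skin came from 1 wild type mouse (WT) and 1 Card14KI mouse (genotype given as Card14 KI +/+), both C57BL/6 and 12 months old. Each skin was digested with enzymes, depleted of dead cells and run as a single droplet library of 3' transcript ends. Card14 encodes a keratinocyte scaffold protein of the NF-kB pathway, and the series title presents the mutant as a model of pityriasis rubra pilaris, a scaly inflammatory skin disease, with the IL-17 axis and IL-36 as its subject.

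With 1 mouse per genotype there is no replicate check, so no p-value is given, and each difference is a difference between these libraries. Intervals are 95% and cover counting error only. Digestion and dead-cell removal act on how many cells of each class reach a library, and their effect was not tested. The filter on genes and mitochondrial UMIs left 4335 cells from WT and 2913 from Card14KI, with medians of 7385 and 6964 UMIs per cell. The libraries shared 2 cell barcodes. Card14 itself gave 456 UMIs in WT and 596 in Card14KI, or 8.47 and 14.8 CPM (counts per 1e6, the UMIs of a gene over all UMIs of the pooled cells). These counts do not separate the knock-in allele from the normal one, so they do not check the genotype. The lymphocyte markers Cd3g and Cd3d were found in 79.1% and 69.6% of WT and 92.8% and 89.9% of Card14KI cells of the lymphocyte class, against 1.77% and 1.37% of all other cells. The fibroblast class carried Col1a2 in 99.4% and 99.5% of its cells. These genes are among the markers that placed the cells, so the shares describe the classes and do not check them.

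TSLP is released by epithelial and stromal cells and acts on dendritic cells and lymphocytes through a receptor of the CRLF2 and IL-7 receptor chains. Type 2 helper T cells and group 2 innate lymphoid cells, which depend on GATA3, answer with IL-4, IL-5 and IL-13. IL-4 and IL-13 signal through IL-4 receptor alpha paired with the common gamma chain or with IL-13 receptor alpha 1, and the signal is carried by STAT6. IL-13 receptor alpha 2 binds IL-13 with high affinity and is known mainly as a decoy, and IL-31 signals itch through IL-31 receptor alpha paired with the oncostatin M receptor.

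Il4, Il13 and Il5 lie together on chromosome 11 (mm10), where they form the type 2 cytokine locus. Il4 spans chr11:53602982-53618669 on the minus strand, Il13 chr11:53631324-53634702 on the minus strand, and Il5 chr11:53720794-53725106 on the plus strand. The starts of Il4 and Il13 are 16.0 kb apart and those of Il13 and Il5 86.1 kb apart. The 250 bases before the start of each gene are shown because these are the cytokine genes that differ most between the libraries; they are RefSeq sequences of GRCm38.p6, written 5' to 3' on the strand of the gene. Capitals mark a STAT6 palindrome in Il4, which is TTC and GAA with any 4 bases between them and reads alike on both strands, and a GATA hexamer in Il5 and Il13, which is GATA with A or T before it and A or G after it on either strand. The windows are chr11:53618666-53618915 for Il4, chr11:53720544-53720793 for Il5 and chr11:53634703-53634952 for Il13.
Il4: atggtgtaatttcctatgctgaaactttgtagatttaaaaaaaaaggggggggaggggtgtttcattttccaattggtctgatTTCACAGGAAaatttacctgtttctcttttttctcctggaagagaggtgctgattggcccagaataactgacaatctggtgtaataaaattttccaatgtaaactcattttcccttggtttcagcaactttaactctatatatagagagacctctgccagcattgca
Il5: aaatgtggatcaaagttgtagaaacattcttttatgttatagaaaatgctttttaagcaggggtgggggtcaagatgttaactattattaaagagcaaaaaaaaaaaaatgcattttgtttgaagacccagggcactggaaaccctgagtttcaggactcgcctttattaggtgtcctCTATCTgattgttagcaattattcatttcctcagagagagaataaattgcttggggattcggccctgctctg
Il13: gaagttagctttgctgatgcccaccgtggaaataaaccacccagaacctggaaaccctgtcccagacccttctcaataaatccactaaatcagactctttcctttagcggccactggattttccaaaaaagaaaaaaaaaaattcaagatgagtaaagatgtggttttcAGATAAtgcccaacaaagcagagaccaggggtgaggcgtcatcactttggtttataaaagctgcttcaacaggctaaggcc
The STAT6 match in Il4 begins 167 bases before the start, the GATA match in Il5 at 72 and that in Il13 at 81. Of all 32851 promoter entries, 26.5% held a GATA hexamer and 5.85% the STAT6 palindrome in a window of the same length. A match describes letters and is not a binding site. An entry was found for 9 of the 10 genes, and Tslp is named only. The Il4 window shown held no GATA hexamer, and the Il5 and Il13 windows held no STAT6 palindrome. A second Il4 entry, at another start, held a GATA match 80 bases before it. The Il31ra window held 2 GATA matches and that of Il13ra2 held 1, and those of Il31, Il4ra, Il13ra1 and Gata3 held none of either motif.

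Il5 and Il13 came almost wholly from lymphocytes, which held 94.6% and 91.3% of their UMIs in WT, and both were far lower in the Card14KI library. The lymphocyte class held 345 WT cells (7.96% of kept cells) and 139 Card14KI cells (4.77%), with medians of 3174 and 3416 UMIs per cell. Of the 10 genes, 5 had the 10 or more UMIs over both libraries needed to call a fold in lymphocytes, and 4 of these, Il4, Il5, Il13 and Gata3, were lower in Card14KI by 1.5-fold or more. Among all 8666 genes with 10 or more UMIs in this class, 34.1% passed that fold either way. Of all 8666, 24.3% were lower and 9.81% higher in Card14KI. The class total was 1209374 UMIs in WT and 512969 in Card14KI.

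**Figure D1:**
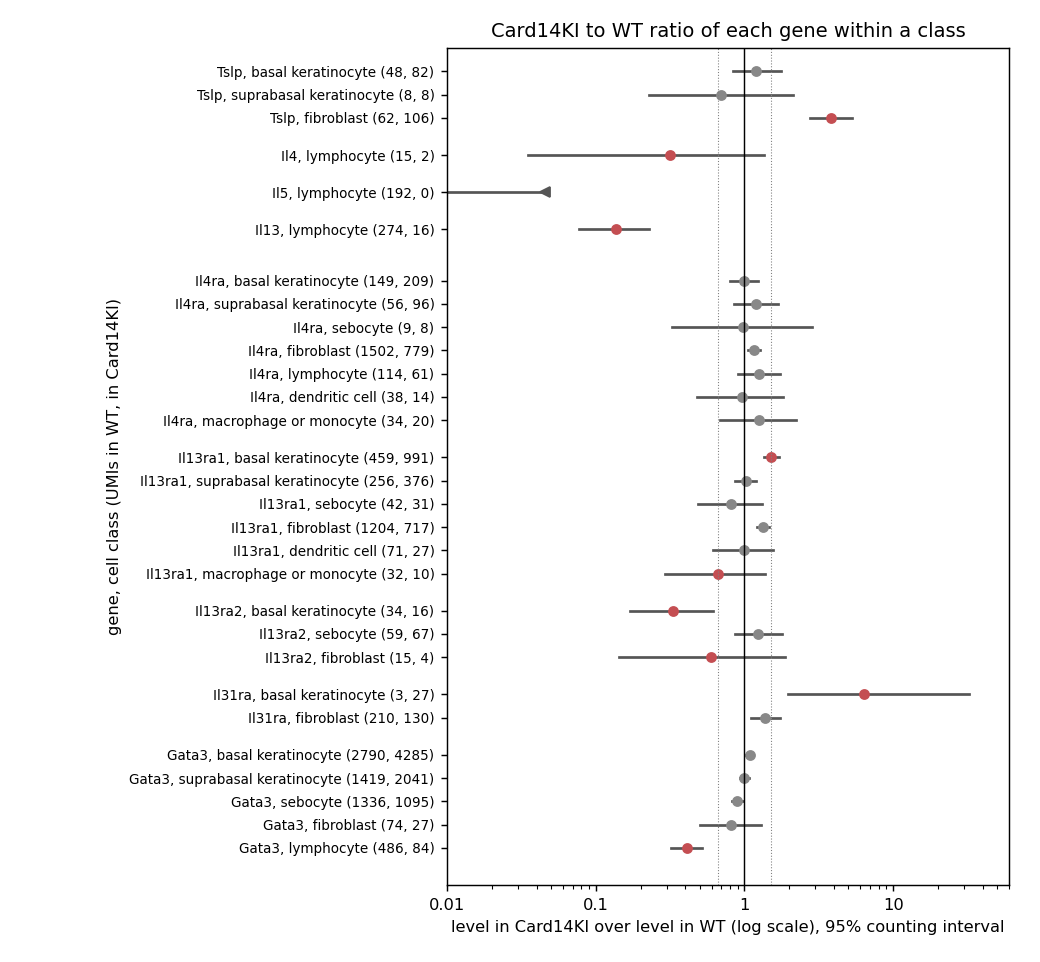
Each point is the Card14KI level divided by the WT level of a gene within a cell class (log axis), with its 95% counting interval; dotted lines mark 1.5-fold either way, coloured points lie past it, and the arrowhead of Il5 is the upper limit for 0 UMIs in Card14KI. Numbers in brackets are UMIs in WT and in Card14KI. The cytokines and Gata3 in lymphocytes lie to the left, Tslp in fibroblasts to the right, and most receptor chains near 1.

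Il5, the growth and survival factor of eosinophils, gave 192 UMIs in 30 WT lymphocytes (159 CPM, 8.70% of cells) and none in Card14KI. Its UMIs were found in 0 of 139 Card14KI lymphocytes, which allows a share of cells with a UMI of up to 2.16%. Taking 3 UMIs as the floor for that class, Il5 was at least 27.1-fold lower. With each cell thinned to 2000 UMIs, 7.05% of WT lymphocytes would still carry Il5. Over all kept cells the counts were 203 UMIs in 39 WT cells and 0 in Card14KI, at least 50.6-fold lower against 3 UMIs. Fibroblasts, which serve as the measure of free RNA for lymphocyte genes, carried an Il5 UMI in 3 of 2132 WT cells despite a median of 7285 UMIs. No cell of either library met an eosinophil gate, which asked for 3 or more of 6 markers. Il5 overlaps the gene Gm12214 on the opposite strand, and the sources used here do not give the strand setting of the counting.

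Il13, an inducer of mucus, barrier change and fibrosis, gave 274 UMIs in 39 WT lymphocytes (227 CPM, 11.3% of cells) and 16 UMIs in 7 Card14KI lymphocytes (31.2 CPM, 5.04%). The level was 7.26-fold lower in Card14KI (interval 4.39 to 12.9). The thinned shares were 9.49% and 3.76%. The share of positive cells thus differed less than the level, since the WT cells that carried Il13 carried more of it: the highest WT cell had 41 UMIs and the highest Card14KI cell 7, while the median over positive cells was 2 and 1. Fibroblasts carried an Il13 UMI in 3 WT cells and 1 Card14KI cell.

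Both cytokines were concentrated in few cells. The 3 highest WT cells held 45.8% of the Il5 UMIs of lymphocytes and 32.1% of the Il13 UMIs, and the highest cell alone held 45 Il5 UMIs. In Card14KI the 3 highest cells held 12 of the 16 Il13 UMIs. Without the highest cell of each library, the Il5 level in Card14KI, with 0 taken as 3 UMIs, was 0.0485 of WT.

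**Figure D2:**
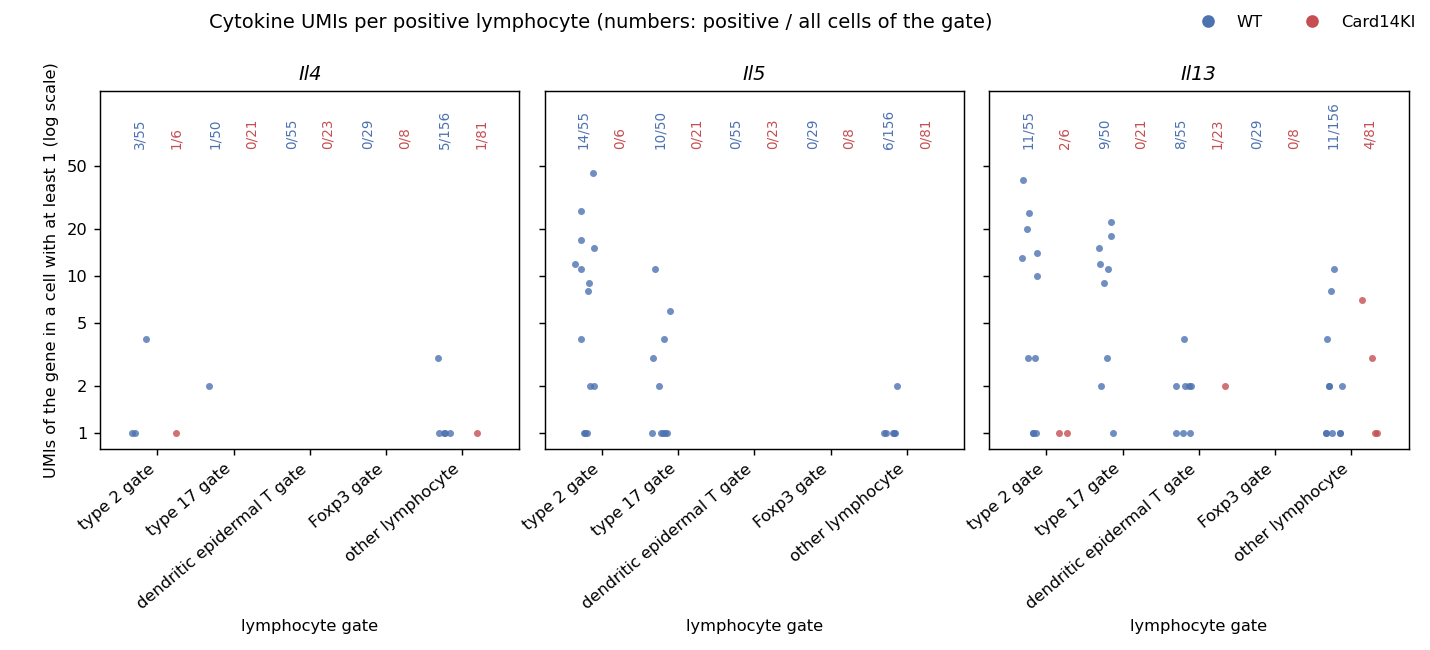
UMIs per cell (log axis) of Il4, Il5 and Il13 in lymphocytes, split by marker gate, with 1 point per cell that carries the gene, spread sideways for sight; the numbers above are cells with a UMI over cells of the gate. Il5 points appear only in WT, chiefly in the type 2 and type 17 gates, and the few Card14KI Il13 points lie low.

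Il4, the cytokine that drives type 2 helper differentiation and the IgE switch, was sparse in lymphocytes, at 15 UMIs in 9 WT cells (12.4 CPM) and 2 UMIs in 2 Card14KI cells (3.90 CPM). The ratio of Card14KI to WT was 0.314 with an interval of 0.03 to 1.35, which includes 1. More UMIs came from a basophil gate, which takes cells with 3 or more of 6 markers of basophils, blood cells that release IL-4. All 6 cells of the WT basophil gate carried Il4, at 1 to 14 UMIs a cell and 25 UMIs in all, which is 41.0% of the 61 Il4 UMIs of the WT library. Gata2 and Fcer1a were found in all 6 and Mcpt8 in 33.3%. The Card14KI library had 0 of 2913 cells in the basophil gate, which allows a share of up to 0.103%, and the WT share was 0.138%. These few cells depend on the processing: the WT gate held 3 cells under the stricter cell filter, 0 once the cells with the highest Scrublet doublet scores were removed and 0 when classes were taken from clusters, with 0 in Card14KI each time. Over all kept cells Il4 fell in 34 WT and 3 Card14KI cells, and in 27 and 3 without the highest doublet scores. A mast cell gate held 2 WT cells, 1 of them with 2 Il4 UMIs, and no Card14KI cell. This too depends on the cell filter. With no filter the gate held 6 WT and 2 Card14KI cells, and under the stricter filter 0 in each.

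Il31, the itch cytokine, was at the edge of detection. It gave 3 UMIs in 3 WT cells and 1 UMI in 1 Card14KI cell, all of them fibroblasts, and none in lymphocytes. Its UMIs were in 0 of 345 WT and 0 of 139 Card14KI lymphocytes, which allows shares of cells with a UMI of up to 0.87% and 2.16%. Il31 overlaps Lrrc43 on the opposite strand. With so few UMIs, and the strand setting of the counting not given, they cannot be assigned to Il31 with certainty.

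Lymphocytes were next split by marker gates that leave the 10 genes out. A type 2 gate required 2 or more of 9 genes, among them Il1rl1 (the IL-33 receptor), Klrg1 and Ccr8. It held 55 WT lymphocytes (15.9%, interval 12.2 to 20.2) and 6 Card14KI lymphocytes (4.32%, interval 1.60 to 9.16). The WT cells of this gate held 154 of the Il5 UMIs and 132 of the Il13 UMIs, and the 6 Card14KI cells held 0 and 2. A cell that met several gates was placed in the type 17, dendritic epidermal T or Foxp3 gate ahead of the type 2 gate. Wherever they were placed, lymphocytes with 2 or more of the 9 genes numbered 96 in WT (27.8%) and 14 in Card14KI (10.1%), with 171 and 0 Il5 UMIs and 170 and 2 Il13 UMIs.

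The type 17 gate (with Il17a, Il17f and Il23r among its markers) made up like shares, with 50 WT (14.5%) and 21 Card14KI (15.1%) lymphocytes. In WT it held 31 Il5 and 93 Il13 UMIs, and in Card14KI none of either. Of its WT cells, 9 also met the type 2 gate, and these held 17 of the 31 Il5 and 37 of the 93 Il13 UMIs, while 2 of them carried Il17a. Il17a, the effector cytokine of that gate, was carried by 27 WT and 18 Card14KI lymphocytes. In WT 4 of these cells also carried Il13, and in Card14KI none did. The gate of dendritic epidermal T cells, the gamma-delta T cells of mouse epidermis, held 55 WT and 23 Card14KI cells with 15 and 2 Il13 UMIs and no Il5. The Foxp3 gate of regulatory T cells (29 and 8 cells) held no Il4, Il5 or Il13 UMI. The remaining 156 WT and 81 Card14KI lymphocytes held 34 and 12 Il13 UMIs and 7 and 0 Il5 UMIs.

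The WT lymphocytes with Il5 or Il13 numbered 50, and 19 carried both. They carried Rora, a factor needed by innate type 2 cells, in 84% of cells, Gata3 in 66% and Il1rl1 in 34%. In the other 295 WT lymphocytes the shares were 55.9%, 43.1% and 19.3%, at a lower median depth (3046 against 4159.5 UMIs). All 30 cells with Il5 carried Rora and none carried Trdc, the constant segment of the delta T cell receptor, which 8 of the 39 cells with Il13 did carry. No chain of CD3, the signalling complex of the T cell receptor, was detected in 54 WT lymphocytes (15.7%) and 5 Card14KI lymphocytes (3.60%). These 54 WT cells held 81 Il5 and 115 Il13 UMIs, and the 291 with a CD3 chain held 111 and 159. This split was chosen after the values were seen, and a transcript that was not detected at these depths may still be present.

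The unsupervised clusters, made without the 10 genes, split the class another way. Cluster 6, led by Gzmc, Ccl5 and Cd52, held 239 of the WT and 110 of the Card14KI lymphocytes. All lymphocyte Il5 UMIs were in it, 192 in WT and 0 in Card14KI. It also held 259 WT and 14 Card14KI Il13 UMIs, a ratio of 0.11 (0.06 to 0.19). Cluster 21, led by Cd3g, Rgs1 and Trdc, held the other 15 and 2. Cluster 22, led by Ctla4, Tnfrsf4 and Icos, held none.

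Outside lymphocytes and the basophil and mast cell gates given above, several UMIs of these cytokines in 1 cell were rare. A WT cell of the lymphatic endothelial class with 18040 UMIs carried 1 Il4, 2 Il5 and 7 Il13 UMIs together with 9 Gata3, 8 Icos and 9 Il7r UMIs. A WT immune cell that met no class held 2 Il4, 1 Il5 and 7 Il13 UMIs. The lymphocyte gene Il2rg gave 97 UMIs in 47 WT fibroblasts and 1 UMI in Card14KI fibroblasts, so lymphocyte transcripts were more frequent among WT fibroblasts; the part this has in the single cytokine UMIs there was not tested.

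Tslp differed in the opposite direction, and most of its UMIs lay in fibroblasts and basal keratinocytes. Over all kept cells it gave 137 UMIs in 112 WT cells and 227 UMIs in 158 Card14KI cells, a ratio of 2.21 (1.78 to 2.76). Fibroblasts held 45.3% of these UMIs in WT and 46.7% in Card14KI, and basal keratinocytes 35.0% and 36.1%. Lymphocytes, sebocytes, neutrophils and B or plasma cells held none in either library.

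In fibroblasts Tslp gave 62 UMIs in 60 of 2132 WT cells (3.47 CPM, 2.81%) and 106 UMIs in 78 of 1315 Card14KI cells (13.3 CPM, 5.93%). The level was 3.82-fold higher in Card14KI (2.77 to 5.31). The thinned shares were 0.789% and 1.82%. The highest Card14KI cell held 18 UMIs, and without the highest cell of each library the ratio was 3.28. Of the 6 members with enough UMIs in fibroblasts, 2 passed 1.5-fold, Tslp higher and Il13ra2 lower (15 and 4 UMIs), where 27.5% of all genes of the class did.

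The fibroblast level of Tslp was higher in Card14KI within cluster 0, and the makeup of the class differed as well. Cluster 0, led by Ptgs2, Anxa3, Cxcl1 and Ptx3, genes that include enzymes and chemokines of inflammation, made up 17.8% of WT and 37.9% of Card14KI fibroblasts. Within it Tslp was 7.71 (WT) and 22.7 CPM (Card14KI), with a ratio of 2.94 (1.84 to 4.89). Within cluster 2, led by Hmcn2, Apod and Gpx3, it was 6.49 and 13.5 CPM, a ratio of 2.08 (0.96 to 4.42), an interval that includes 1. Cluster 1, led by Col1a1 and Col1a2, gave 9 UMIs in WT and 1 in Card14KI, and cluster 5, led by Mmp11 and Spp1, gave none. Cluster 3 gave 9 and 2 UMIs, a ratio of 0.89 (0.09 to 4.28). With the clusters given the same weights in both libraries, the fibroblast ratio was 2.16.

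**Figure D3:**
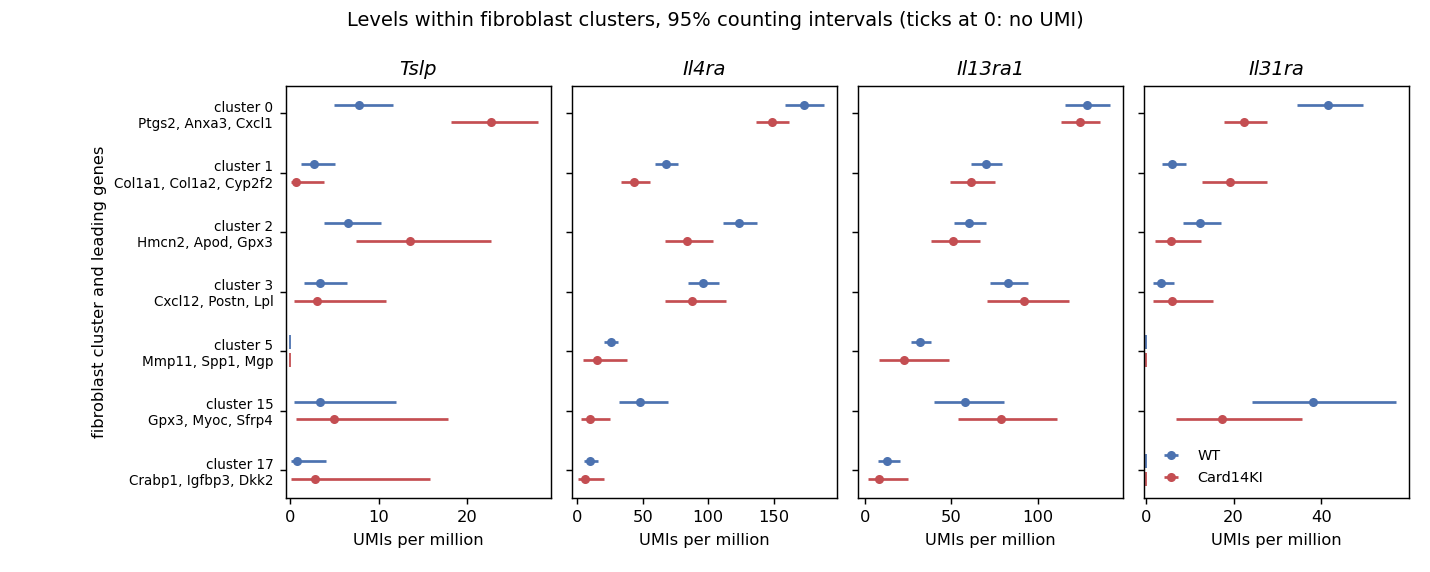
Levels (CPM) of Tslp, Il4ra, Il13ra1 and Il31ra in the fibroblast clusters of each library, with 95% counting intervals. In cluster 0 Tslp stands higher in Card14KI, Il31ra lower and Il13ra1 close to equal, and Il31ra stands higher in cluster 1. In cluster 2 the ratio intervals of Tslp and Il31ra include 1.

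Basal keratinocytes gave 48 Tslp UMIs in WT (4.86 CPM) and 82 in Card14KI (5.85 CPM), a ratio of 1.20 (0.83 to 1.75). Of these, 47 and 80 were in cluster 4, led by Krt15, Col17a1 and Krt5, adhesion and keratin genes of basal cells. That cluster made up 28.5% of WT and 64.9% of Card14KI basal keratinocytes, while cluster 11, led by the hair follicle keratins Krt6a and Krt75, made up 23.1% and 1.52%. Within cluster 4 Tslp was lower in Card14KI, 7.32 against 11.6 CPM (ratio 0.63, 0.44 to 0.93). The class and its leading cluster thus differed in direction, and for this reason keratinocytes are compared below by cluster number. Suprabasal keratinocytes held 8 Tslp UMIs in each library. Hair follicle keratinocytes held 4 in WT (1.78 CPM) and 8 in Card14KI (7.95 CPM). Macrophages or monocytes held 1 Tslp UMI in WT and 6 in Card14KI, and lymphatic endothelial cells 8 and 5. In WT no 2 neighbouring classes in the order of Tslp levels had intervals apart, and in Card14KI the one step apart lay between basal (5.85 CPM) and suprabasal keratinocytes (0.937 CPM).

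The other epithelial alarmins differed in direction by class. Il33 was 113 CPM in WT and 68.4 CPM in Card14KI fibroblasts, and 2.36 and 6.33 CPM in suprabasal keratinocytes. Il25 gave 1 UMI in WT and 28 in Card14KI suprabasal keratinocytes. Of the 8 genes listed as alarmins and their receptors, 5 were tested in suprabasal keratinocytes, with Il33 and Il25 higher and Crlf2 lower (median log2 ratio 0.24 beside 0.06 over all genes, of which 13.2% were higher and 8.33% lower). In fibroblasts 6 were tested, with 1 higher (Il1rl1) and 3 lower (median 0.02 beside -0.08, and 8.35% higher and 19.1% lower over all genes). For the receptor of TSLP, Crlf2 was 94.8 and 104 CPM in dendritic cells and 85.2 and 78.0 CPM in lymphocytes. Its partner Il7r was 766 and 575 CPM in lymphocytes, a ratio of 0.751 (0.66 to 0.86). Il5ra, the specific chain for IL-5, was found chiefly in B or plasma cells, at 33 UMIs in WT and 6 in Card14KI, and its partner Csf2rb was 211 and 217 CPM in dendritic cells.

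**Figure D4:**
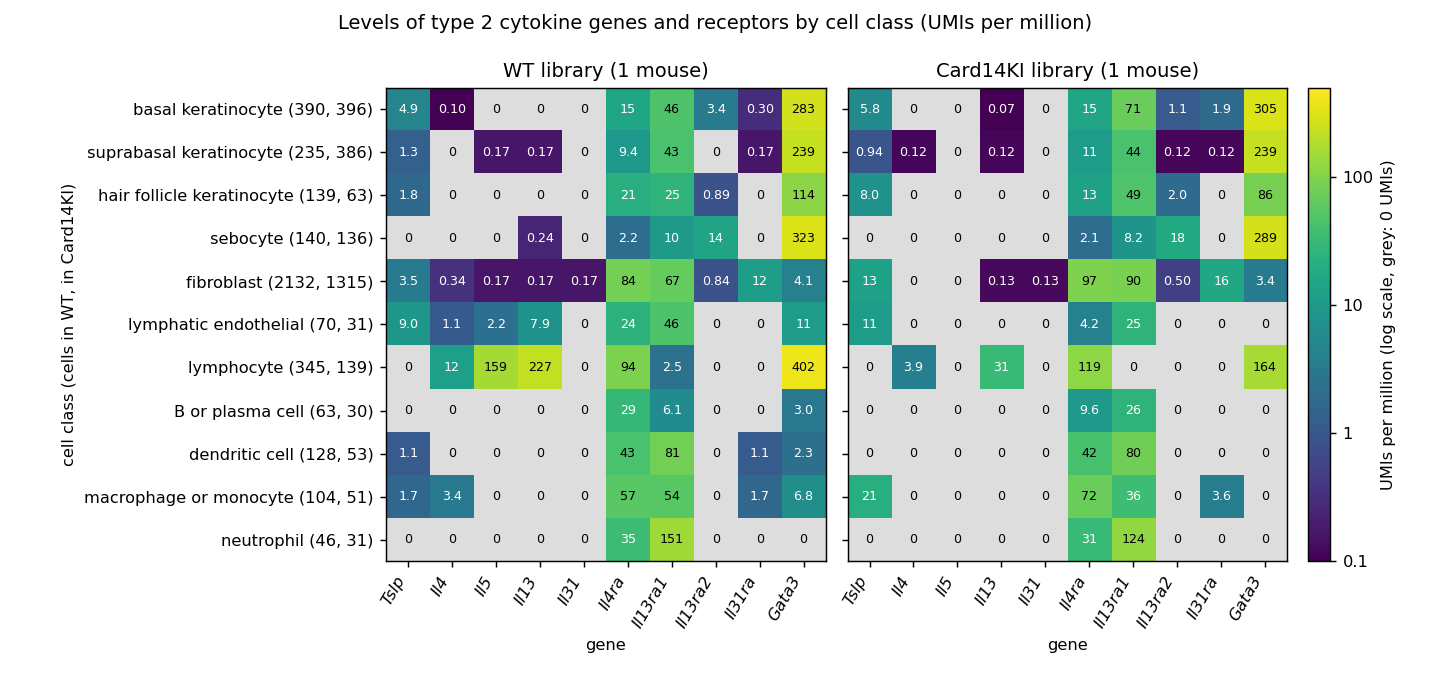
Level of each gene in each cell class and library, in CPM, for classes of 30 or more cells in both libraries. Il5 and Il13 stand in lymphocytes, Il31ra in fibroblasts, Il13ra2 in sebocytes, and Il4ra, Il13ra1 and Gata3 in several classes.

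Il4ra was broadly present, and its intervals overlapped between the libraries in every class compared except fibroblasts. It was highest in lymphocytes (94.3 CPM in WT, 119 CPM in Card14KI) and fibroblasts (84.1 and 97.4 CPM), followed by macrophages or monocytes (57.4 and 71.6) and dendritic cells (43.4 and 41.7). The intervals of lymphocytes and fibroblasts overlapped in both libraries. Basal keratinocytes (15.1 and 14.9 CPM), suprabasal keratinocytes (9.44 and 11.2) and sebocytes (2.17 and 2.11) were at the low end in WT. In Card14KI lymphatic endothelial cells, at 2 UMIs (4.24 CPM) against 21 in WT (23.6 CPM), lay there too, with a ratio of 0.180 (0.02 to 0.73). B or plasma cells gave 19 UMIs in WT (28.7 CPM) and 3 in Card14KI (9.60 CPM), and their ratio interval of 0.06 to 1.13 includes 1.

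In lymphocytes the Il4ra ratio was 1.26 (0.91 to 1.74), an interval that includes 1. In fibroblasts the pooled ratio was 1.16, but within cluster 0 the level was 173 CPM in WT and 149 CPM in Card14KI, and within cluster 2 it was 124 and 83.8 CPM. With equal cluster weights the fibroblast ratio was 0.777, the reverse direction. Il4ra overlaps Gm44876 on the opposite strand. Its partner Il2rg, the common gamma chain, was 316 and 394 CPM in lymphocytes. Of 16 receptor chains and signalling genes listed, 12 were tested in lymphocytes, with 1 higher (Stat5a) and 2 lower (Il9r and Stat6), a median log2 ratio of -0.14 beside -0.10 over all genes, of which 9.81% were higher and 24.3% lower.

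Il13ra1 was found in nearly every class except lymphocytes, which held 3 UMIs in WT and 0 in Card14KI. The highest levels were in neutrophils (151 CPM from 13 UMIs in WT, 124 CPM from 8 UMIs in Card14KI), dendritic cells (81.1 and 80.3) and fibroblasts (67.4 and 89.7), and the intervals of these neighbours overlapped. Of 6 members tested in basal keratinocytes, 3 passed 1.5-fold, Il13ra1 and Il31ra higher and Il13ra2 lower, where 32% of all genes of the class did. Il13ra1 in that class was 46.5 CPM in WT (459 UMIs) and 70.6 CPM in Card14KI (991 UMIs), a ratio of 1.52 (1.36 to 1.70). Within cluster 4 it was 78.8 and 81.4 CPM, a ratio of 1.03 (0.91 to 1.18), an interval that includes 1.

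In fibroblasts the Il13ra1 ratio was 1.33, and 0.949 with equal cluster weights. Within cluster 0 it was 129 CPM in WT and 125 CPM in Card14KI. In macrophages or monocytes Il13ra1 was 54.0 CPM (32 UMIs) and 35.8 CPM (10 UMIs), 1 of 2 members tested past 1.5-fold beside 39.8% of all genes of the class, with a ratio interval of 0.29 to 1.38. In dendritic cells 0 of 2 members tested passed, beside 36.9% of all genes, and in suprabasal keratinocytes 0 of 4, beside 21.5%.

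Il13ra2 was chiefly a gene of sebocytes, the lipid-filled cells of the sebaceous gland. They held 59 UMIs in 25 of 140 WT cells (14.3 CPM, 17.9%) and 67 UMIs in 38 of 136 Card14KI cells (17.7 CPM, 27.9%), with intervals apart from the next class in both libraries. The ratio was 1.24 (0.86 to 1.79), and within cluster 14, led by Scd1 and Elovl4, the levels were 22.1 and 23.7 CPM. Sebocytes are the deepest class compared, with medians of 26189.5 and 25169.5 UMIs, and after thinning the shares were 2.50% and 3.49%. In sebocytes 0 of 4 members tested passed 1.5-fold, beside 18.5% of all genes. Basal keratinocytes held 34 Il13ra2 UMIs in WT and 16 in Card14KI (ratio 0.331, 0.17 to 0.62). When each basal cell was weighted equally, that ratio was 1.48, the reverse direction. Suprabasal keratinocytes held 0 and 1 UMI.

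Il31ra was chiefly a gene of fibroblasts, which held 210 of its 223 UMIs in WT and 130 of 163 in Card14KI. The level was 11.8 (WT) and 16.3 CPM (Card14KI), with a ratio of 1.38 (1.10 to 1.73). The clusters went different ways. In cluster 0 Il31ra was 41.6 CPM in WT and 22.4 CPM in Card14KI (ratio 0.54, 0.40 to 0.72), and in cluster 1 it was 5.85 and 19.1 CPM (ratio 3.27, 1.78 to 6.12). With equal cluster weights the fibroblast ratio was 0.750. Basal keratinocytes held 3 UMIs in 3 of 390 WT cells and 27 UMIs in 6 of 396 Card14KI cells, a ratio of 6.33 (1.95 to 32.6). That interval takes each UMI as a separate count, though several fell in 1 cell in Card14KI. The shares of positive cells thus differed less than the level. Lymphocytes and sebocytes held none. Osmr, the chain that pairs with it, was 92.4 and 98.8 CPM in fibroblasts, and 5.90 and 13.0 CPM in suprabasal keratinocytes.

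Gata3 was a gene of lymphocytes and of epidermis, where it is known as a factor of epidermal and hair follicle differentiation. In WT its order was lymphocytes (402 CPM), sebocytes (323), basal keratinocytes (283), suprabasal keratinocytes (239) and hair follicle keratinocytes (114), each apart from the next by its interval. In Card14KI basal keratinocytes (305) and sebocytes (289) led with overlapping intervals, and lymphocytes (164) came after suprabasal keratinocytes (239). The 167 WT cells of the inner root sheath and hair shaft held 418 CPM, a class with 1 cell in Card14KI.

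In lymphocytes Gata3 gave 486 UMIs in 160 WT cells (46.4%) and 84 UMIs in 47 Card14KI cells (33.8%), with thinned shares of 35.6% and 24.2%. The ratio was 0.407 (0.32 to 0.51), 2.45-fold lower. Fibroblasts, as the measure of free RNA, carried it in 2.35% of WT and 1.83% of Card14KI cells. The level was lower within cluster 6 (439 and 159 CPM, ratio 0.36, 0.28 to 0.47) and cluster 22 (606 and 318 CPM, ratio 0.52, 0.27 to 0.95). Within cluster 21 it was 51.7 and 50.7 CPM from 9 and 2 UMIs (ratio 0.98, 0.10 to 4.74). Keratinocyte clusters gave ratios nearer 1: in cluster 4 of the basal class Gata3 was 367 CPM in WT and 331 CPM in Card14KI (ratio 0.90, 0.85 to 0.96), and in cluster 12 of the suprabasal class, led by Krt77, Krt10 and Krt1, it was 451 and 385 CPM (ratio 0.85, 0.77 to 0.94). In suprabasal cluster 10 Gata3 was 144 and 145 CPM (ratio 1.01, 0.89 to 1.14). Gata3 overlaps 4930412O13Rik and Gm13256 on the opposite strand.

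**Figure D5:**
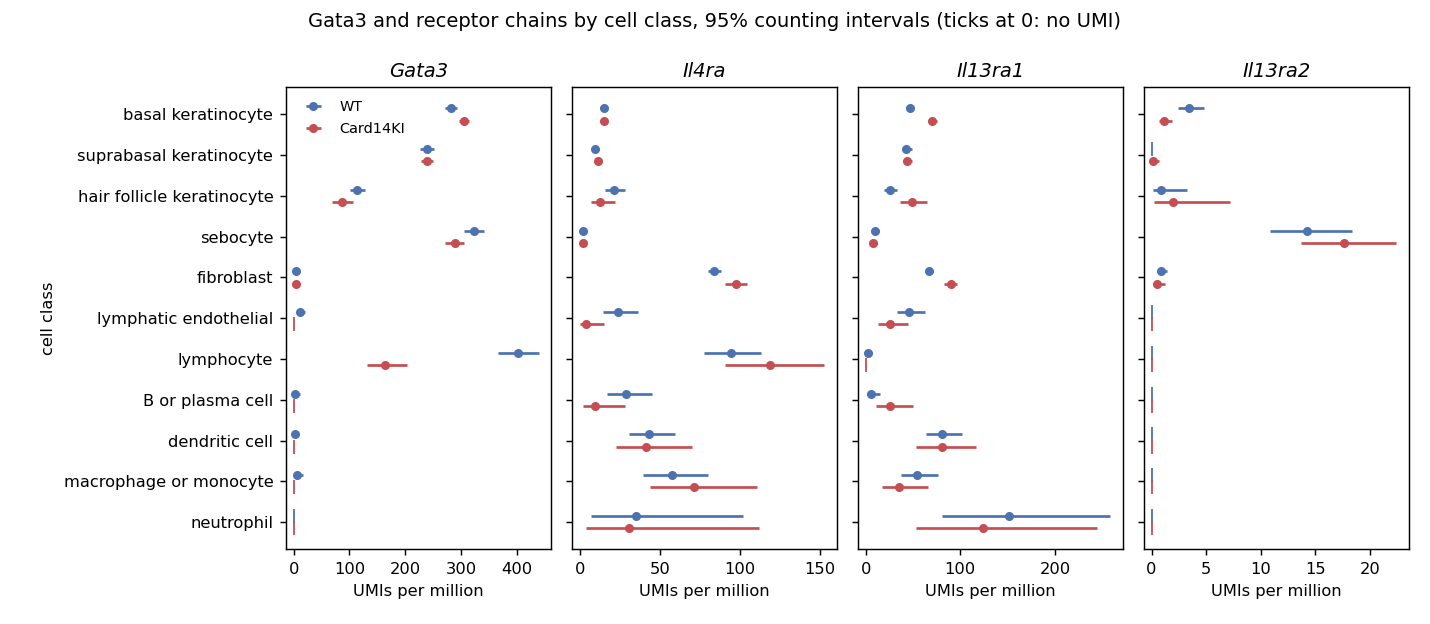
Levels (CPM) of Gata3, Il4ra, Il13ra1 and Il13ra2 in each class compared, with points for WT and Card14KI, bars for 95% counting intervals and ticks at 0 where no UMI was found. Gata3 differs most in lymphocytes, where the intervals lie apart, while Il4ra overlaps between the libraries in every class except fibroblasts, and Il13ra2 stands out in sebocytes.

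Of 25 genes listed for type 2 lymphocytes, 22 had enough UMIs in lymphocytes, and 11 were lower and 2 higher in Card14KI by 1.5-fold. Over all genes of the class 24.3% were lower and 9.81% higher, and the median log2 ratio of the list was -0.42 beside -0.10. Il1rl1 was 225 CPM in WT and 21.4 CPM in Card14KI, 10.5-fold lower (5.77 to 21.3). Klrg1, an inhibitory receptor of mature type 2 cells, gave 64 and 3 UMIs, a ratio of 0.111 (0.02 to 0.34). Calca, which encodes the neuropeptide CGRP, was 97.6 and 19.5 CPM. Il9r gave 29 UMIs and 1 UMI. Areg, the tissue repair growth factor, did not follow, with 635 CPM in WT against 807 in Card14KI. Since 9 of the 25 genes are also markers that helped define the lymphocyte class, the 16 others are given apart: 15 were tested, 5 were lower and 2 higher, shares near those of all genes, and their median log2 ratio was -0.29.

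Genes known to be raised by IL-4 and IL-13 differed in direction by class. In macrophages or monocytes 8 of 15 tested were higher in Card14KI and 1 lower, and the median log2 ratio was 0.75 beside -0.09 over all genes of the class, of which 14.7% were higher and 25.1% lower. Cluster 24, led by Retnla, C1qa and Ccl8, made up 31.7% of the WT and 49.02% of the Card14KI cells of this class, and its part in the count was not tested. Retnla, a marker of IL-4 activated macrophages, was 3467 CPM in WT and 11115 CPM in Card14KI, Ccl7 was 633 and 1976 CPM, and Vcam1 gave 56 and 3 UMIs. In dendritic cells 3 of 18 were higher and 6 lower, with a median of -0.26 beside -0.10 and with 11.9% higher and 25.0% lower over all genes. Retnla was 435 and 3008 CPM, while the CCR4 ligands Ccl22 and Ccl17 gave 123 and 57 UMIs in WT and 1 UMI each in Card14KI. In fibroblasts 4 of 19 were higher and 10 lower, with a median of -0.08 beside -0.08 and with 8.35% higher and 19.1% lower over all genes, among them the matrix genes Postn (1892 and 436 CPM) and Tnc (116 and 10.3 CPM) on the lower side and the chemokine Ccl2 (355 and 1288 CPM) on the higher side. The other lower genes were Ccl8, Retnla, Arg1, Mrc1, Clec10a, Mgl2, Tgm2 and Ear2, and the other higher ones Ccl7, Socs3 and Serpinb2. Mrc1, also 1 of the 8 genes higher in macrophages or monocytes, is a marker that helped place cells in that class. The immune gene Il2rg gave 97 UMIs in WT and 1 in Card14KI fibroblasts. The part that immune transcripts have in the fibroblast count was not tested. Postn is a leading gene of fibroblast clusters 3 and 5, which made up 16.1% and 16.04% of WT and 11.1% and 4.56% of Card14KI fibroblasts, and their part in its level was not tested.

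Barrier genes, several of which IL-4 and IL-13 are known to lower in keratinocytes, differed by layer. In suprabasal keratinocytes 0 of 13 were higher and 2 lower (median log2 ratio 0.00 beside 0.06 over all genes, of which 13.2% were higher and 8.33% lower), Flg at 4411 CPM in WT and 1779 in Card14KI and Lor at 25483 and 15367. In basal keratinocytes 12 of 13 were higher in Card14KI, among them Krt10 (1632 and 4968 CPM). The median was 0.71 beside -0.09, with 10.2% higher and 21.7% lower over all genes. The cluster makeup differed as given above, and its part in this count was not tested. Krt1, Krt10, Lor, Flg2 and Hrnr are also markers of the suprabasal gate, so the gating partly sets their levels in both layers. Outside these layers, Krt1 was also past 1.5-fold higher in dendritic cells, macrophages or monocytes, fibroblasts and sebocytes, but not in lymphocytes. Of the barrier genes tested in the first 4 of these classes, 2 of 4, 1 of 3, 2 of 13 and 3 of 10 were higher. The numbers lower were 0, 1, 4 and 0. Over all genes of these 4 classes 11.9%, 14.7%, 8.35% and 8.88% were higher, and 25.0%, 25.1%, 19.1% and 9.6% lower. In lymphocytes 7 were tested, with 1 higher (Spink5) and 2 lower (Lor and Klk7), beside 9.81% higher and 24.3% lower over all genes. The part of free keratinocyte RNA in the basal count was not tested.

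Across the 22 levels given by 11 classes in 2 libraries, the genes whose pattern was most like each member's were found by Pearson correlation of log2(CPM + 10), as a description of points that share libraries and depth. Il13 was closest to Calca (r = 0.998), Il4 to B3galt5 (0.954), with Il13 next but one (0.942), and Il5 to 1110025L11Rik (0.988). Il13ra2 was closest to Ldb3 (0.990), Il31ra to Emx2 (0.976) and Gata3 to Sntb1 (0.941). The more widespread members were less closely matched, with Il4ra closest to Emp3 (0.851), Il13ra1 to Trib1 (0.836) and Tslp to Ang (0.829). For members found chiefly in 1 class, r is set by few of the levels. Il5 was 159 CPM in WT lymphocytes and at most 2.25 CPM elsewhere. Il13 was 227 (WT) and 31.2 CPM (Card14KI) in lymphocytes and at most 7.87 CPM elsewhere. A high r for such a member describes presence in the same class and library.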

How the data were processed

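The deposited files are filtered gene by cell matrices of UMI counts, unnormalized, 1 per mouse, made by the authors with Cell Ranger 6.0.2 on mm10 per the submitters' processing notes, and with Cell Ranger 5.0.0 per the file headers. No source used here gives the annotation release. The libraries hold 54816411 (WT) and 41460580 (Card14KI) UMIs over 5016 and 3348 barcodes.

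Cells with at least 500 genes and under 20% mitochondrial UMIs were kept. Each cell was placed by its highest marker score, the mean over a list of each marker's log scaled UMIs, capped at the 90th percentile of positive cells, with cells whose second lineage scored over 0.5 of the first set aside as mixed (227 and 194 cells); the scoring was set after seeing the data, no annotation by the authors was used, and other names could give other values. Classes with 30 or more cells in each library were compared. UMIs were summed per class and given as CPM with exact Poisson intervals, ratios with exact conditional binomial intervals, and shares with Clopper-Pearson intervals. A gene passed the fold at a CPM ratio of 1.5 or more either way with 10 or more UMIs over both libraries. A count of 0 was bounded at 3 UMIs or 3 cells. Thinned shares are the expected share at 2000 UMIs per cell, leaving out shallower cells. Leiden clusters (30 clusters, resolution 1, made on 1939 variable genes without the members and listed genes) served as an alternative and as strata. Scrublet called 2 and 4 doublets by itself, which is too few to have worked, so no cells were removed; an alternative removes 174 and 78 cells. List medians use log2(CPM + 10).

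All 10 members are named. From each list and class at most 3 genes with 20 or more UMIs and a ratio interval without 1 are named by size, plus the partner receptor chains; Areg, Il9r and the genes of single cells were chosen after their values were seen. The members and lists were chosen with earlier results of these data known. Gene positions are from GENCODE vM21 on mm10, promoters from RefSeq. Python 3.11.15, numpy 2.4.6, scipy 1.17.1, pandas 2.3.3, scanpy 1.11.5, leidenalg 0.10.2 and matplotlib 3.10.9 were used, and the interval and thinning code was tested on simulated data.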

Additional observations from a re-analysis of the deposited data

How the results depend on the processing

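Of 282 values recomputed for 41 results under other settings, 253 were counted as the same, 28 as moved, and 1 changed the direction of a difference past 1.5-fold. For levels and shares, the same means within the counting interval of the reported value, and moved means beyond it. Counts of listed genes have no such interval. The settings were the cell filter, mixed cells, doublets, cluster classes, the highest cell, the scaling, thinning and the minimum UMIs. The Card14KI to WT ratio in lymphocytes stayed between 0.0912 and 0.174 for Il13, 0.216 and 0.342 for Il4, and 0.379 and 0.427 for Gata3. For Il5, with 0 taken as 3 UMIs, the ratio of 0.0368 was 0.0485 without the highest cell and 0.0561 as a mean over cells. Tslp in fibroblasts ranged from 2.16, with equal cluster weights, to 4.05. Il13ra1 in basal keratinocytes was 1.77 as a mean over cells and 1.04 with equal cluster weights. That value was Il13ra2 in basal keratinocytes, at 1.48 as a mean over cells. Ratios reported within 1.5-fold crossed 1 in 17 values, 7 of them beyond the counting interval. At a minimum of 30 UMIs, 1 type 2 lymphocyte gene was higher in Card14KI where 2 were reported, which was counted as moved. The number lower went from 11 to 8 there, which was counted as the same. Equal cluster weights, chosen after seeing the data, took the fibroblast ratios of Il4ra (0.777), Il13ra1 (0.949) and Il31ra (0.750) and the basal ratios of Tslp (0.633) and Gata3 (0.899) below 1. As a mean over cells, Il4ra in fibroblasts was 0.969 and Il13ra2 in sebocytes 0.85. The cause of these moves was not tested beyond the cluster values given above. Values from under 10 UMIs are imprecise. No paired analysis was possible because each genotype has 1 library.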

Other observations

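Some UMIs of the 10 genes lay in cells outside the classes compared. The inner root sheath and hair shaft class held 2437 of the 9200 WT Gata3 UMIs, and 52 WT Il13ra1 UMIs. Blood endothelial cells held 22 Il13ra1 and 19 Il4ra UMIs in WT, and 60 and 34 in Card14KI. The 16 WT cells of immune origin that met no class held 46 Gata3 UMIs in 7 cells. They also held 10 Il13, 2 Il5 and 4 Il4 UMIs. The 2 Card14KI cells of this kind held no UMI of Gata3, Il13, Il5 or Il4. Mixed cells, which carry markers of a second lineage, held 311 Gata3 UMIs in WT and 255 in Card14KI, and 3 and 11 Tslp UMIs.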
